A study of Mus musculus with 11 samples.

Results

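The cyclins and cyclin-dependent kinase (CDK) inhibitors described here were 10 genes, chosen by name from the gene symbols printed on the array: the D-type cyclins Ccnd1, Ccnd2 and Ccnd3, the E-type cyclins Ccne1 and Ccne2, the A-type cyclin Ccna2, the B-type cyclins Ccnb1 and Ccnb2, and the inhibitors Cdkn1a (p21) and Cdkn1b (p27). They were 10 of 27962 gene names on the array and were read by 18 of its 41174 oligonucleotides. All 10 genes, through 17 of the 18 oligonucleotides, passed the filter on dim signals, as did 16704 genes in all. Liver RNA from mice at 4 ages was labelled with Cy5 and hybridised beside a common Cy3-labelled reference, a commercial RNA of normal adult mouse liver, on 11 arrays. The ages were embryonic day 14 (E14.5 in the study's text, 3 arrays), embryonic day 18 (E18.5, 3 arrays), postnatal day 5 (P5, 2 arrays, numbered 2 and 3) and postnatal day 56 (P56, 3 arrays), each array being labelled a separate biological replicate. The cell type label was hepatoblasts at E14.5, immature hepatocytes at E18.5 and hepatocytes at P5 and P56, while the extraction protocol named whole livers of every age along with isolated fetal cells, so whether the fetal samples were isolated cells or whole liver was not settled by the labels. The labels named no mutation or treatment, and the strain was given in the methods, as C57BL/6, for the isolated fetal cells alone.

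Cyclins are regulatory proteins that switch on CDKs at set points of the cell cycle. D-type cyclins act with Cdk4 and Cdk6 in G1, E-type cyclins with Cdk2 at the start of DNA replication, and A- and B-type cyclins with Cdk2 and Cdk1 through S phase and mitosis, whereas p21 and p27 bind cyclin-CDK complexes and restrain them. The fetal liver is a site of rapid cell division, in hepatic progenitors and in the blood-forming cells it houses, while hepatocytes of the adult liver rarely divide unless tissue is lost.

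Every value below is a log2 ratio of liver to the adult reference, so that 0 is the level of the reference and 1 is a doubling. A stage difference is the difference of such ratios, tested with limma in a fit of all 11 arrays and called at a Benjamini-Hochberg adjusted p below 0.05 over 16704 genes. Between 16790 (P56 replicate 2) and 25718 of 43379 spots per array stood well above background in the liver channel. The ratios of replicate arrays correlated across genes, with coefficients of 0.987 to 0.990 among E14.5 arrays, 0.969 to 0.985 among E18.5 arrays, 0.901 between the P5 pair and 0.827 to 0.937 among P56 arrays. Scanning took 4 sessions. Both embryonic stages met in 1 of these scans, and P5 and P56 met in another, but none held E18.5 with P5 or E14.5 with P56, so in those 2 comparisons scan and age cannot be told apart as separate terms of the fit.

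The 8 cyclins were all lower in adult than in E14.5 liver, and the steps in which they were called lower were not the same for every gene. Before birth, from E14.5 to E18.5, 6 cyclins fell (Ccnd1, Ccnd2, Ccnd3, Ccne1, Ccne2 and Ccnb1), none rose, and Ccna2 and Ccnb2 were not called. Of all genes tested, 22.8% were called lower and 24.6% higher in that comparison, and the median change of the 8 cyclins was -0.70 beside -0.013 for all genes. From P5 to P56, 7 cyclins fell, all but Ccnd1, with a median over the 8 of -2.17 beside -0.021 for all genes; 24.7% of all genes were called lower and 20.9% higher. Between E14.5 and P56, 8 of 8 cyclins were lower, with a median of -3.08 beside 0.04 for all genes, where 34.8% of all genes were called lower and 36.1% higher. Ccne2, Ccnb1 and Ccna2 passed the filter through earlier stages alone, with liver signal well above background on 0, 0 and 1 of the P56 arrays. For them the filter itself favoured a lower P56 value. Ccnd1, Ccnd2, Ccnd3, Ccne1 and Ccnb2 stood well above background on all 11 arrays.

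The step across birth drew few calls among these genes, and its size differed between the 2 P5 arrays. From E18.5 to P5 limma called none of the 8 cyclins (2, Ccnd2 and Ccnd3, had an unadjusted p below 0.05) and 1 of the 10 genes, Cdkn1a, which fell, in a comparison where 6.4% of all genes were called lower and 7.32% higher. That count rested on the P5 arrays. With P5 replicate 2 left out, 6 of the 10 genes were called, all lower (Ccnd2, Ccnd3, Ccna2, Ccnb1, Cdkn1a and Cdkn1b), and 22.6% of all genes were called, 50.8% of these lower. With P5 replicate 3 left out none of the 10 was called, and 5.56% of all genes were. Replicate 3 lay below replicate 2 for 9 of the 10 genes and by more than 0.5 for 4 of them, while 50.4% of all genes were lower on replicate 3 and 7.8% were lower by more than 0.5. The 2 P5 arrays came from different scans, replicate 2 alone in its scan and replicate 3 in that of the P56 arrays. Sample and scan therefore cannot be told apart in the gap between them. Of the inhibitors, Cdkn1a rose from E14.5 to E18.5 and fell in both later steps, and Cdkn1b passed the threshold in no comparison of this fit, although it did so under other processing.

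**Figure D1:**
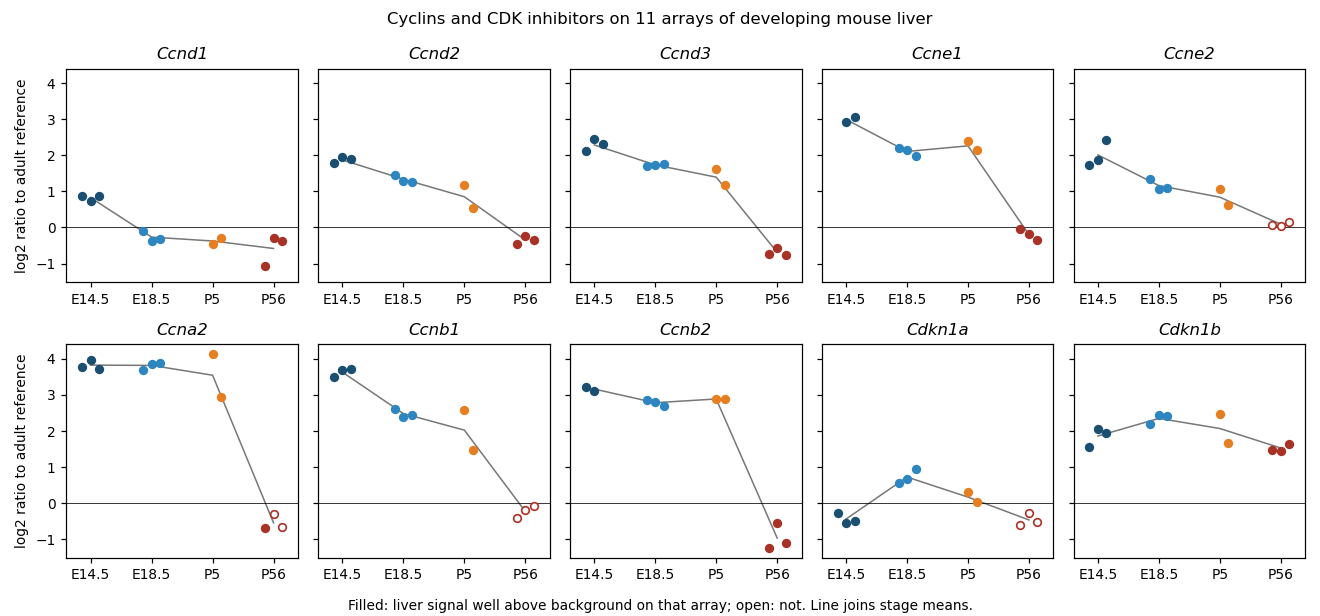
Log2 ratio of liver to the adult liver reference for each of the 10 genes (vertical axis) on each array, by stage (horizontal axis); lines join the stage means, and open points mark arrays whose liver signal was not well above background. The cyclins start between 0.73 and 3.98 at E14.5 and end between -1.24 and 0.15 at P56, Cdkn1a peaks at E18.5, and the 2 P5 arrays lie apart for Ccna2 (4.14 and 2.96) and Ccnb1 (2.58 and 1.47).

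**Figure D2:**
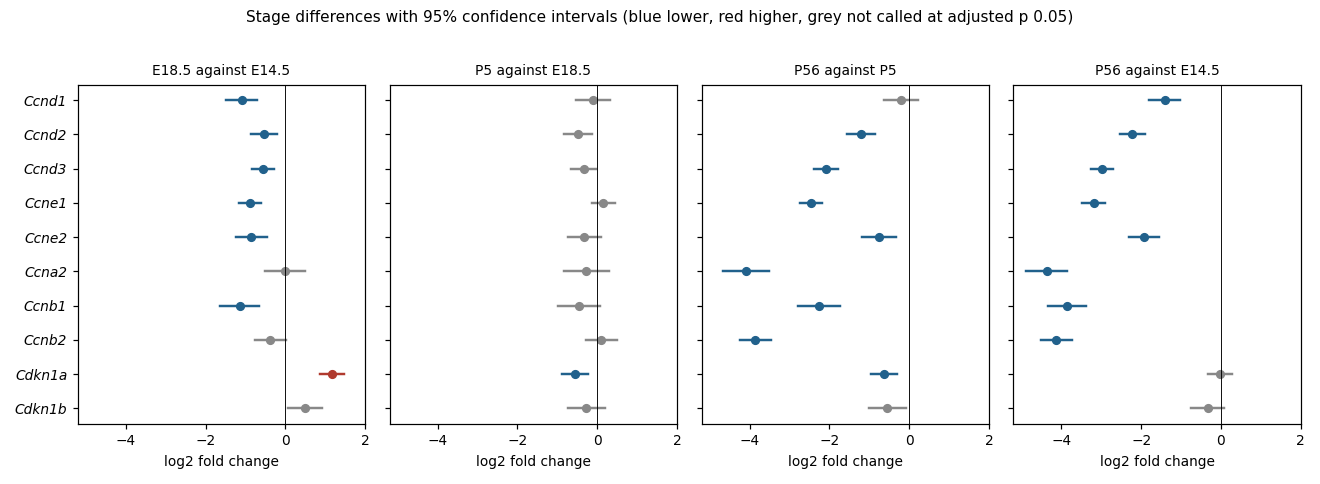
Log2 fold change of the 10 genes (horizontal axis) in the 4 stage comparisons, with 95% confidence intervals from the limma fit; blue and red mark genes called lower and higher. In each of the last 2 panels 8 of the 10 genes were called lower, while 1 gene, Cdkn1a, was called from E18.5 to P5.

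Cyclin D1, D2 and D3 are the growth-signal-responsive partners of Cdk4 and Cdk6. Ccnd1, read by an oligonucleotide spotted 10 times (chr7_random:7568179-7568238 in the files' build, mm7), was at 0.87, 0.73 and 0.88 on the E14.5 arrays and at -0.10, -0.38 and -0.33 at E18.5. It was at -0.46 and -0.29 at P5 and at -1.08, -0.29 and -0.37 at P56. Ccnd1 thus stood above the adult reference at E14.5 alone, and its values at E18.5, P5 and P56 overlapped. It fell by 1.09 (SE 0.177, 2.13-fold, adjusted p = 0.00034) from E14.5 to E18.5, and the later steps were not called (-0.11, 95% interval -0.54 to 0.32, and -0.21, interval -0.64 to 0.23). At P56 the range rested on replicate 1: without it the P56 against P5 difference was 0.04. From E14.5 to P56 Ccnd1 was lower by 2.65-fold.

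Ccnd2 (chr6:127154070-127154129, minus strand) was at 1.78, 1.94 and 1.89 at E14.5 and at 1.47, 1.30 and 1.25 at E18.5. It was at 1.17 and 0.53 at P5, and at -0.46, -0.23 and -0.35 at P56. Each stage lay below the one before it with no overlap. Ccnd2 fell by 0.53 (SE 0.145, adjusted p = 0.0098) from E14.5 to E18.5 and fell by 1.20 (SE 0.162, 2.30-fold, adjusted p = 0.00011) from P5 to P56. The step between, -0.49 with an interval of -0.84 to -0.13, had an adjusted p of 0.069. Ccnd3 (chr17:45735858-45735917) took the same shape with a larger last step. It was at 2.11, 2.45 and 2.31 at E14.5, at 1.71, 1.75 and 1.75 at E18.5, at 1.61 and 1.18 at P5, and at -0.73, -0.56 and -0.78 at P56. Ccnd3 fell by 0.55 (SE 0.127, adjusted p = 0.0036) from E14.5 to E18.5 and fell by 2.08 (SE 0.142, 4.24-fold, adjusted p = 5e-07) from P5 to P56. The decreases of Ccnd2 and Ccnd3 from E14.5 to E18.5 did not pass the threshold in the authors' own normalised table (-0.59, adjusted p = 0.053, and -0.43, adjusted p = 0.14) or with a normexp offset of 0 (adjusted p = 0.066 and 0.074).

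Cyclin E1 and E2 activate Cdk2 as cells enter S phase. Ccne1 was at 2.94 and 3.05 on 2 of the E14.5 arrays, its spot on the other (replicate 1) having been set aside by the scanner software as an outlier. It was at 2.20, 2.15 and 1.98 at E18.5 and at 2.39 and 2.14 at P5. At P56 it was at -0.046, -0.19 and -0.36. Ccne1 fell by 0.89 (SE 0.128, 1.85-fold, adjusted p = 0.00021) before birth, held between 1.98 and 2.39 through P5, and fell by 2.46 (SE 0.128, 5.51-fold, adjusted p = 1.4e-07) by P56. The P5 difference from E18.5 was 0.16 (interval -0.13 to 0.44).

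Ccne2 (chr4:11130171-11130230) was dimmer. It was at 1.73, 1.88 and 2.42 at E14.5, at 1.35, 1.05 and 1.08 at E18.5, and at 1.07 and 0.61 at P5. Its liver signal was not well above background on any P56 array, and its reference signal on none of the 11, so its ratios were taken against a reference spot near background. Ccne2 fell by 0.85 (SE 0.173, adjusted p = 0.0017) from E14.5 to E18.5, a call lost in the authors' table (-0.77, adjusted p = 0.39) and by the scanner's processed signals (-0.64, adjusted p = 0.26). In 1 scaling of the liver channel, P56 was at least 1.99-fold lower than P5 and at least 3.97-fold lower than E14.5. The fit of ratios to the reference, a separate measure, gave -0.75 (1.68-fold, adjusted p = 0.0078) and -1.92 (3.79-fold, adjusted p = 1e-06). Both were smaller than the bounds, which therefore do not hold for the ratios. Such bounds set the mean of the brighter stage against the lowest signal well above background on each array of the dim stage. The dim spot's own signal was used where that was higher, as for Ccne2 and Cdkn1a. Signals were those of the Cy5 channel after loess and quantile scaling of mean intensities, without a dye swap. The bounds have no interval and hold for that scaling alone. By Cy5 alone, scaled by quantiles, the log2 difference of Ccne2 in P56 against E14.5 was -1.88, smaller than its bound. With scan as a fixed term the P56 against P5 difference of Ccne2 was -0.52 with an adjusted p of 0.11.

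Cyclin A2 works in S phase and G2, and cyclins B1 and B2 drive entry into mitosis with Cdk1. Ccna2 (chr3:36375837-36375896, minus strand) was at 3.78, 3.98 and 3.73 at E14.5 and at 3.70, 3.86 and 3.90 at E18.5. It was at 4.14 and 2.96 at P5 and at -0.69, -0.29 and -0.66 at P56, where 1 of 3 arrays had a liver signal well above background. The embryonic stages overlapped, with a difference of -0.0087 (SE 0.234, interval -0.52 to 0.50), and neither P5 array came near the P56 values. Ccna2 fell by 4.09 (SE 0.261, 17.1-fold, adjusted p = 2.9e-07) from P5 to P56. The size of that difference rests in part on P56 signals near background. Across the alternatives it ran from -3.50 with scan as a fixed term to -5.70 by the scanner's processed signals.

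Ccnb1 (chr13:97885282-97885341, minus strand) was at 3.49, 3.69 and 3.71 at E14.5 and at 2.62, 2.38 and 2.45 at E18.5. It was at 2.58 and 1.47 at P5, and at P56 its liver signal was not well above background on any array. The E14.5 arrays lay above all others. Ccnb1 fell by 1.15 (SE 0.219, 2.22-fold, adjusted p = 0.001) from E14.5 to E18.5. In the liver channel, scaled as for Ccne2, P56 was at least 5.54-fold lower than P5 and at least 15-fold lower than E14.5. The fit of ratios gave -2.26 (4.78-fold, adjusted p = 2e-05) and -3.86 (14.55-fold, adjusted p = 1.9e-08). Here too both were smaller than the bounds, which hold for the liver channel in that scaling alone. Ccnb2 (chr9:70439814-70439873, minus strand) was at 3.21 and 3.12 on 2 E14.5 arrays (replicate 3 was set aside as an outlier spot), at 2.87, 2.80 and 2.68 at E18.5 and at 2.89 and 2.88 at P5. At P56 it was at -1.24, -0.55 and -1.10. The E14.5 values lay above the E18.5 values, with a difference of -0.38 (SE 0.174, adjusted p = 0.098) that was not called, and Ccnb2 fell by 3.86 (SE 0.174, adjusted p = 5.4e-08) from P5 to P56.

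Before birth Ccnb1 was thus called lower, with an interval of -1.63 to -0.67, and Ccna2 and Ccnb2 were not called, with the Ccnb2 interval running from -0.76 to 0.0058. The difference between these genes was not tested. By liver signal alone, with the Cy5 channel scaled by quantiles, Ccnb1 kept its call at E18.5 (adjusted p = 4.6e-07), and Ccna2 and Ccnb2 were also called lower (-0.58, adjusted p = 0.021, and -1.06, adjusted p = 0.0043). Ccnb2 was called lower as well with median centring (-0.48, adjusted p = 0.015), with the arrays of both stages alone (adjusted p = 0.0088) and without P56 replicate 2 (adjusted p = 0.013). With a normexp offset of 0 the Ccna2 difference was 0.22 (adjusted p = 0.58) and Ccnb1 lost its call (-1.10, adjusted p = 0.059).

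Genes of the G2 and mitotic programme are known for promoters with CCAAT boxes, bound by NF-Y, and a CHR element. RefSeq promoter windows (build GRCm38.p6, 250 bases before the start site) were at hand for 6 of the 10 genes, with 8 windows in all. The letters CCAAT on either strand were in 33.8% of 32851 windows of the same length over all genes, and 10.1% held 2 or more. Ccnb1 held 2 and Ccnb2 held 3, all on the gene's own strand, and Cdkn1b also held 2. The 180 bases before the start of these 3 genes are given to show that arrangement, Ccnb1 from chr13:100786487-100786666 (minus strand), Ccnb2 from chr9:70421555-70421734 (minus strand) and Cdkn1b from chr6:134920221-134920400 (plus strand), 5′ to 3′ and with CCAAT and the CHR-type letters TTTGAA or TTTAAA in capitals.
Ccnb1: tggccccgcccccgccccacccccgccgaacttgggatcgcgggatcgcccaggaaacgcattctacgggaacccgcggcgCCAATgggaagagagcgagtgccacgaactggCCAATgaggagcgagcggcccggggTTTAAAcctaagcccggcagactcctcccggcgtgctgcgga
Ccnb2: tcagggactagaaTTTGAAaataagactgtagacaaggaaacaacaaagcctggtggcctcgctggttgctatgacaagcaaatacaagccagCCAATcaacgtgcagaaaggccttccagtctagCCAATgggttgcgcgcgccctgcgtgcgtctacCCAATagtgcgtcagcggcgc
Cdkn1b: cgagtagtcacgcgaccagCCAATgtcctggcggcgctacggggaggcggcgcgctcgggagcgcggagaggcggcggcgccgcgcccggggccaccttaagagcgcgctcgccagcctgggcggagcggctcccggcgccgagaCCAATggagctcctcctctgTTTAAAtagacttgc
The CHR-type letters, on either strand, were in 25.2% of all windows. They began 42 bases before the start of Ccnb1, after its CCAAT pair at 99 and 67 bases, and 167 bases before the start of Ccnb2, outside its CCAAT row at 87, 54 and 21 bases. In Cdkn1b they began 15 bases before the start, after CCAAT at 161 and 35 bases. Bases after the start site were not searched, so any such letters just past the Ccnb2 row would have been missed. Of the other windows, 1 of 2 for Ccnd3 held 1 CCAAT, Ccne1 held TTTAAA and no CCAAT, and both Cdkn1a windows held none of these letters. The E2F-type letters TTTCGCGC, TTTGGCGC, TTTCCCGC and TTTGCCGC, present in 1.86% of all windows, were in none of the 8. These matches describe the letters of the windows and no binding was measured.

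Cdkn1a encodes p21, an inhibitor of CDK2 complexes and a target of p53. Its oligonucleotide, spotted 10 times (chr17:27293819-27293878), gave -0.28, -0.54 and -0.50 at E14.5 and 0.55, 0.68 and 0.95 at E18.5. It gave 0.31 and 0.02 at P5, and its liver signal was not well above background on any P56 array. All E18.5 arrays lay above all arrays of every other stage. Cdkn1a rose by 1.16 (SE 0.136, 2.24-fold, adjusted p = 2.7e-05) from E14.5 to E18.5 and fell by 0.56 (SE 0.152, adjusted p = 0.032) by P5. In the liver channel, scaled as for Ccne2, P56 was at least 1.47-fold lower than P5, with a ratio difference of -0.63 (adjusted p = 0.0051). The rise kept its call under each alternative that measured the gene. The decrease by P5 lost its call without P5 replicate 3 (-0.41, adjusted p = 0.25), without E18.5 replicate 3 (-0.44, adjusted p = 0.11), without E18.5 replicate 2 (-0.58, adjusted p = 0.069), in the authors' table (-0.82, adjusted p = 0.19) and with scan as a random block (-0.55, adjusted p = 0.057). With scan as a fixed term the P56 against P5 difference was -0.49 (adjusted p = 0.06). P56 against E14.5 was not called (-0.027, interval -0.32 to 0.27), although the gene was called lower by the scanner's own processed signals (-1.11, adjusted p = 0.00066), in the authors' table (-0.84, adjusted p = 0.014) and by Cy5 alone (-0.29, adjusted p = 0.019).

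Cdkn1b encodes p27, a CDK inhibitor of resting cells. The brightest of its 3 oligonucleotides, listed under a cDNA clone accession, was at 1.57, 2.07 and 1.95 at E14.5, at 2.19, 2.45 and 2.41 at E18.5, at 2.48 and 1.66 at P5 and at 1.48, 1.46 and 1.64 at P56. It was above the adult reference on every array, those of adult liver included. The E18.5 arrays lay above the E14.5 arrays, with a difference of 0.49 (SE 0.190, interval 0.07 to 0.91, adjusted p = 0.052), and P56 was below P5 by a difference of -0.54 (adjusted p = 0.056). These calls depended on the processing. At E18.5 Cdkn1b was called higher without background subtraction (0.53, adjusted p = 0.0056), by Cy5 alone (0.43, adjusted p = 0.022) and with the arrays of both stages alone (adjusted p = 0.0079). At P56 it was called lower than P5 in the authors' table (-1.08, adjusted p = 0.0037) and with median centring (-1.33, adjusted p = 0.00045), and lower than E14.5 in both (-0.87, adjusted p = 0.0024, and -1.10, adjusted p = 0.00059), beside -0.33 (adjusted p = 0.14) in this fit. The 2 oligonucleotides listed under the RefSeq transcript read lower. One, spotted 10 times, had stage means of 0.20, 0.31, 0.27 and -0.13 from E14.5 to P56, and the other did not stand above background on any array. The first 30 bases of the clone oligonucleotide (chr6:134939519-134939578) and of the RefSeq oligonucleotide with signal (chr6:134935407-134935465) show 2 sequences that share no run longer than 5 bases over their 60.
A_51_P146126: ttcattgcctgtgtatgagaaaaacttgga
A_51_P169173: agtcagcgcaagtggaatttcgactttcag
The value of Cdkn1b therefore depended on the oligonucleotide, its E18.5 difference from E14.5 being 0.49 by the first and 0.11 by the second. An annotation of build mm7 was not used here, so whether either lies in an exon was not analysed.

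The other genes with several oligonucleotides gave 1 direction in the comparisons where they were called. The 3 of Ccnd2 put P56 below E14.5 by differences of -2.22, -2.59 and -2.16, and the 3 of Ccnb1 and the 2 of Ccne2 were also lower there, none of them well above background on any P56 array. The brighter of 2 for Ccne1 gave -3.19, the dimmer one, lower too, being not well above background on any P56 array. From E18.5 to P5 they pointed apart, at 0.16 and -0.26. From P5 to P56 they gave -2.46 and -0.92, the second resting on P56 signals near background. Both Ccne1 oligonucleotides are listed at the same 24 bases (chr7:34990690-34990713, minus strand) although each is 60 bases long and they share no run longer than 6. Ccnd1, Ccnd3, Ccna2, Ccnb2 and Cdkn1a each rested on 1 oligonucleotide.

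**Figure D3:**
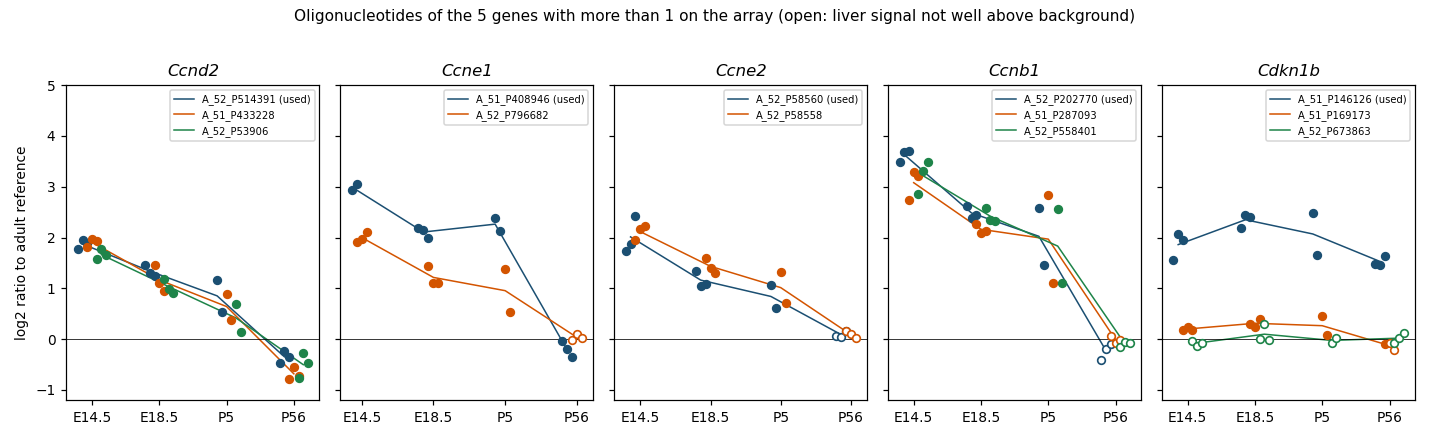
Log2 ratio to the adult reference (vertical axis) by stage (horizontal axis) for every oligonucleotide of the 5 genes that had more than 1; each point is an array, lines join stage means, and open points mark a liver signal not well above background. The lines of Ccnd2, Ccne2 and Ccnb1 run together. Those of Ccne1 lie apart at E14.5 (2.99 and 2.00), E18.5 (2.11 and 1.21) and P5 (2.26 and 0.95), and those of Cdkn1b at every stage (1.86 and 0.20 at E14.5).

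Within the scans that held both ages the directions were the same as in the full fit. Against the 3 E14.5 arrays of its scan, the single E18.5 array gave -1.01 for Ccnb1, -0.93 for Ccnd1, -0.41 for Ccnd2, -0.58 for Ccnd3, -0.80 for Ccne1, -0.66 for Ccne2 and 0.98 for Cdkn1a. Against the single P5 array of its scan, the 3 P56 arrays gave -3.85 for Ccnb2, -3.50 for Ccna2, -2.33 for Ccne1, -1.86 for Ccnd3, -1.70 for Ccnb1 and -0.88 for Ccnd2. Since P5 replicate 2 was alone in its scan, these differences equal those with scan as a fixed term and those without P5 replicate 2. They are the same estimate, resting on P5 replicate 3 alone, and do not add to each other. Scaling also set how some adult differences read. Of the genes called from P5 to P56, 54.3% were lower, and between E14.5 and P56, 49.0% were. Centring each array on its median in place of loess moved these shares to 93.2% and 77.1% and the median of all genes to -0.47 and -0.33. With the shift taken off, the P56 against P5 differences of the 8 cyclins stayed negative, from -0.23 for Ccne2 to -4.29 for Ccnb2, and Ccnd1 stood at -0.63 and Cdkn1b at -0.86.

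Marker genes of blood cells were read beside the cyclins. In RNA of bulk samples, fewer cells of a type and less RNA per cell cannot be told apart. The mean log2 ratio of 13 erythroid genes, Hba-a1, Hbb-b1, Klf1 and Hemgn among them, lay between 3.52 and 3.65 on the E14.5 arrays and between 3.53 and 3.64 on the E18.5 arrays. It was 3.42 on P5 replicate 2, 2.89 on P5 replicate 3, and between -0.14 and 0.04 on the P56 arrays. All 13 were called lower at P56 than at E14.5 and all 13 lower than at P5, beside 34.8% and 24.7% of all genes. On P5 replicate 3 the erythroid mean was lower, as were Ccna2 and Ccnb1, with differences of -1.18 and -1.12, while that of Ccnb2 was -0.0097. Other lists had lower means there too (replicate 2 first: endothelial 0.32 and -0.03, stellate and fibroblast 0.26 and -0.05, biliary 0.10 and -0.003, hepatoblast 3.76 and 3.66). Those of other blood cells (1.28 and 1.30), macrophages (-1.19 and -1.09) and mature hepatocytes (-0.74 and -0.73) were not lower. With 2 arrays, which came from different scans, the parts of these lists and of the scan cannot be told apart. From E14.5 to E18.5, where 6 cyclins fell, 3 of the 13 erythroid genes were called lower and 3 higher, beside 22.8% and 24.6% of all genes. In the same step 9 of 14 genes of other blood cells were called higher and 2 lower, and 11 of 11 macrophage genes were called higher, with medians of 1.66 and 1.29. The mean log2 ratio of those 14 genes was between 0.17 and 0.37 at E14.5, between 1.86 and 1.94 at E18.5, 1.28 and 1.30 at P5, and between -1.19 and -0.82 at P56. A list of 6 hepatoblast genes ran from 4.06 to 4.12 at E14.5 and from 4.37 to 4.43 at E18.5. It was at 3.76 and 3.66 at P5 and ran from 0.12 to 0.45 at P56. A list of 13 mature hepatocyte genes ran from -4.03 to -3.81 at E14.5, from -1.90 to -1.80 at E18.5 and from -0.22 to 0.38 at P56. From E14.5 to E18.5, 11 of these 13 were called higher and 0 lower, with a median of 1.93. The fetal arrays, labelled hepatoblasts and immature hepatocytes, and the P5 arrays, labelled hepatocytes, thus carried high levels of both erythroid and hepatoblast genes. The part of any of these lists in the cyclin values was not tested.

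**Figure D4:**
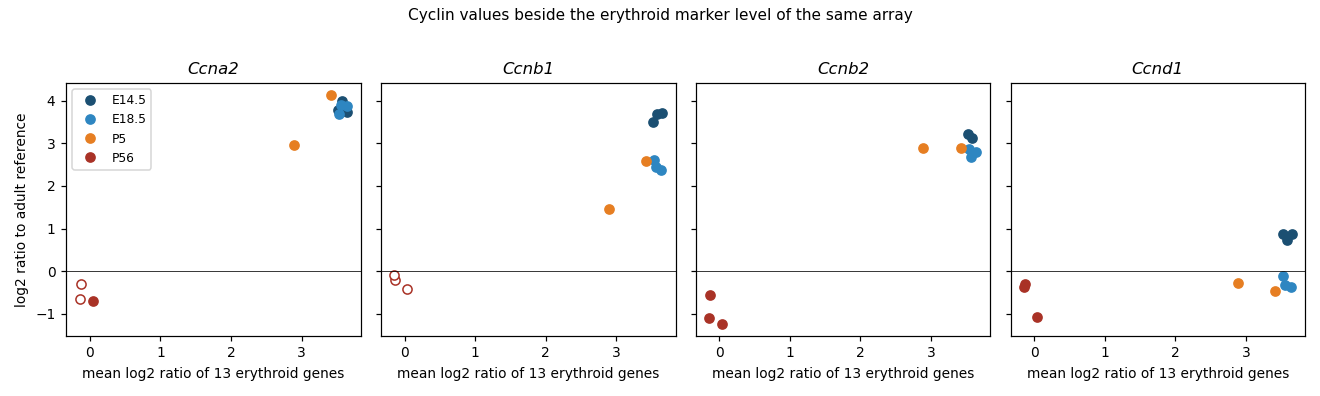
Log2 ratio of 4 cyclins (vertical axis) beside the mean log2 ratio of 13 erythroid genes (horizontal axis) on the same array, coloured by stage; open points mark a liver signal not well above background. P56 arrays lie at the lower left and the embryonic arrays at the right, where Ccna2 stays between 3.70 and 3.98 while Ccnb1 and Ccnd1 differ between E14.5 and E18.5 at like erythroid levels.

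The partners and controllers of these genes were read from a list of 59 other cell cycle regulators, of which 53 were measured. From E14.5 to E18.5, 16 of the 53 fell and 7 rose, beside 22.8% and 24.6% of all genes. From E18.5 to P5, 2 fell and 1 rose, beside 6.4% and 7.32%. From P5 to P56, 34 fell and 8 rose, beside 24.7% and 20.9%. Between E14.5 and P56, 41 were lower and 8 higher, beside 34.8% and 36.1%. Median differences of the 53 were -0.14, -0.17, -0.68 and -1.28 in that order, beside all-gene medians of -0.013, 0, -0.021 and 0.04. The same all-gene shares stand beside the counts of the smaller groups below.

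Among the kinases, Cdk4, the partner of D-type cyclins, fell by 1.15 (SE 0.116, adjusted p = 8.4e-06) from E14.5 to E18.5, as Ccnd1 did, and Cdk7, the CDK-activating kinase, fell by 0.92 with a second oligonucleotide at -0.25. Cdk6, the other D-cyclin partner, rose by 0.76 (adjusted p = 0.00075) in the same step. All 5 kinases on the list were lower at P56 than at E14.5, with differences of -3.12 for Cdk1 (array name Cdc2a) and -2.15 for Cdk4, although a dim second oligonucleotide of Cdk1 gave -0.11. Of 4 other CDK inhibitors measured, limma called none from E14.5 to E18.5 (1, Cdkn1c, at 0.34, had an unadjusted p below 0.05), and from P5 to P56 3 fell. At P56, 3 were lower than at E14.5 and Cdkn2c was higher (0.46, adjusted p = 0.049). The P56 against E14.5 difference was -3.31 for Cdkn1c (p57) and -3.43 for Cdkn3, beside -0.027 for Cdkn1a and -0.33 for Cdkn1b.

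Of 16 RB and E2F pathway genes, 14 were lower and 2 higher at P56 than at E14.5. E2f2 fell by 3.33 and E2f8 rose by 3.90, but a second E2f8 oligonucleotide gave -1.96, so its direction depended on the oligonucleotide. From E14.5 to E18.5 the largest called differences in that group were -0.93 for E2f6 and -0.91 for Tfdp1, the dimerisation partner of E2F proteins. All 5 CDC25 phosphatases and WEE1-type kinases were lower at P56, with differences of -4.29 for Cdc25b and -1.65 for Pkmyt1, and Cdc25c fell by 0.47 before birth. In the group that carries out the turnover of cyclins and inhibitors, 8 of 11 were lower and 3 higher at P56 than at E14.5. The difference was -4.30 for Cdc20, the activator of the anaphase-promoting complex, and -3.70 for Fbxo5, an inhibitor of that complex. Cdk1, Cdkn3, Cdc25b and Fbxo5 each stood well above background on 1 of 3 P56 arrays, so the sizes of their differences rest in part on signals near background. Cks1b and Cks2, small CDK-binding proteins, were lower by E18.5 (-0.87 and -0.76).

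The other cyclins on the list act mainly in transcription or have less settled roles. Of 12 measured, 6 were lower and 2 higher at P56 than at E14.5, beside 34.8% and 36.1% of all genes. Among the lower were Ccnf (-1.40, with liver signal well above background on 2 of 3 P56 arrays) and Ccnjl, not well above background on any P56 array. From E14.5 to E18.5 Ccng2 rose by 0.53, while Ccnt2 gave 1.12 by its brightest oligonucleotide and 0.12 and -0.046 by 2 others.

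Since Cdkn1a is a p53 target, 19 other p53 target genes were read beside it. From E14.5 to E18.5, 8 rose and 3 fell, with a median of 0.07, where 24.6% of all genes were called higher and 22.8% lower. Trp53inp1 and Perp, which act in p53-dependent cell death, rose by 2.33 each (adjusted p = 5.5e-08 and 2.5e-08), and Fas, a death receptor, was higher by 1.94. Second oligonucleotides of Trp53inp1 and Fas gave 1.36 and 0.58. Mdm2, the p53 ubiquitin ligase, was at 0.07 (adjusted p = 0.63) and Bax fell by 0.63. From P5 to P56, where Cdkn1a fell, 5 of the 19 fell and 6 rose, beside 24.7% and 20.9% of all genes. Between E14.5 and P56, 6 were lower and 6 higher, beside 34.8% and 36.1% of all genes, with Perp higher by 4.14 and Fas by 2.74. The list did not move as 1 group in any of these comparisons.

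**Figure D5:**
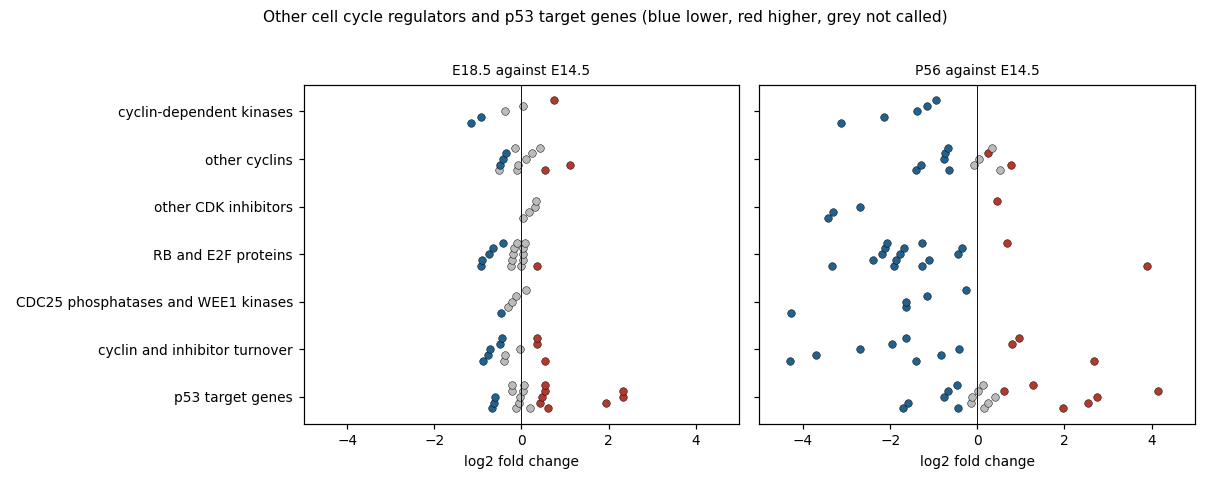
Log2 fold change (horizontal axis) of each measured gene of 6 groups of cell cycle regulators and of the p53 targets (rows; spread within a row is for legibility), from E14.5 to E18.5 on the left and from E14.5 to P56 on the right; blue and red mark genes called lower and higher. Lower calls prevail among the kinases, RB and E2F genes and CDC25 group on the right, with E2f8 apart at 3.90, while p53 targets spread to both sides.

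Across the 11 arrays, the values of pairs of cyclins correlated at 0.53 (Ccnd1 and Ccna2) to 0.99 (Ccnd2 and Ccnb1), and the lowest of all 45 pairs was -0.27 (Ccnd1 and Cdkn1a). These correlations describe arrays that share their reference and fall into adult and earlier groups. Over the 8 arrays before P56, the range for cyclin pairs was 0.06 (Ccna2 and Ccnb2) to 0.98 (Ccnd2 and Ccnb1), and Ccnb2 and Cdkn1a stood at -0.92. Ccnb2 and Ccne1 each lacked a value on 1 E14.5 array, so their pairs rest on fewer arrays than stated.

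The genes most like each member over the 11 arrays, out of all those tested, had correlations between 0.95 and 0.999. Ccna2 was nearest to Ank1 and Hemgn, both erythroid genes, with 0.998 and 0.997, and at 0.92 for both over the 8 arrays before P56. Ccnb2 was nearest to Cdc20 and Birc5, genes of mitosis (0.998 and 0.997, over the 10 arrays with both values), but these fell to 0.80 and 0.49 without the P56 arrays. Ccnb1 was nearest to 2600005O03Rik and to Exo1, a DNA repair exonuclease, and Ccnd3 to Pola1, a subunit of DNA polymerase alpha, and to Golph3l. Ccnd1 was nearest to Vamp5 and Rplp0, Ccnd2 to Tspan32 and Nup62, Ccne1 to Lmna and Prrx1, and Ccne2 to Maz and Fancb. Cdkn1a was nearest to 2610207I05Rik and 1810033B17Rik (0.98 for both, also without P56). Cdkn1b was least closely matched, at 0.95 with an unnamed transcript (NAP113018-1) and with D330028D13Rik.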

How the data were processed

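The 2-colour arrays were read from scanner files (Agilent Feature Extraction); per the file headers, they hold spot mean and background intensities for Cy5 (liver) and Cy3 (adult liver reference), with no dye swap. The authors also deposited a table of log2 ratios, normalised with limma per the labels; it was used as an alternative. Here, intensities were corrected by normexp (offset 50), outlier and control spots were left out, loess was run within each array (limma 3.58.1, R 4.3.3), spots of an oligonucleotide were averaged, and each gene was read from its brightest oligonucleotide among those whose liver signal cleared background throughout 1 or more stages, with at most 1 missing value a stage. limma's lmFit and eBayes over all 11 arrays gave p-values adjusted by Benjamini-Hochberg; the scripts were tested on simulated data. The number of arrays limits the precision. The genes, lists and tests were chosen with earlier results of these data known. All 10 members were named, plus the 2 largest called changes of each regulator group from E14.5 to E18.5 and from E14.5 to P56 and the 2 genes most like each member; other listed genes (Cdk6, Mdm2, Bax, Hba-a1, Hbb-b1, Klf1, Cdkn2c) were named after their values were seen. Erythroid, other blood, macrophage, hepatoblast and hepatocyte lists were used here. Lists of endothelial, stellate and biliary genes were measured, read on the P5 arrays and summarised in the closing section. A gene of the erythroid list was left out of it and is not reported here. Promoter letters came from RefSeq (GRCm38.p6). Replicate blocks, scan blocks, other scalings, filters and leaving out each array were alternatives.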

Additional observations from a re-analysis of the deposited data

How the results depend on the processing

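The rise of Cdkn1a from E14.5 to E18.5 and the lower levels of the 8 cyclins at P56 against E14.5 kept direction and call in each alternative that measured the genes. The 10 genes gave 7, 1, 8 and 8 calls in E18.5 against E14.5, P5 against E18.5, P56 against P5 and P56 against E14.5, and other counts stayed within 1.5 times of these except as follows. E18.5 against E14.5 gave 4 with a normexp offset of 0 and 4 in the authors' table. P5 against E18.5 gave 0 with that offset, in the authors' table, among genes well above background on all arrays, with scan as a random block, with the arrays of both stages alone, and by the methods' t-test at an unadjusted 0.05 or after adjustment. Requiring signal on all arrays kept 6 of the 10 genes, with 5 calls in P56 against P5 and 5 in P56 against E14.5, and the methods' t-test after adjustment gave 2 in P56 against P5. Leaving out 1 array gave 7 to 8, 0 to 6, 6 to 9 and 8 to 9 calls, and in P5 against E18.5 it gave 6 without P5 replicate 2 and 0 without P5 replicate 3, E18.5 replicate 2 or E18.5 replicate 3. A filter on dim reference spots, chosen after seeing the data, left out Ccne2 and gave 6, 1, 7 and 7. The causes were not tested.

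Replicate numbers did not pair the arrays, since same-numbered arrays deviated from their stage means with correlations of -0.31 to 0.19. With the replicate number as a block 8, 0, 8 and 8 of the 10 genes were called: Cdkn1a at P5 lost its call (-0.58, adjusted p = 0.059) and Cdkn1b at E18.5 gained one (0.49, adjusted p = 0.043).

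Over all genes, calls in P5 against E18.5 numbered 2292, beside 292 in the authors' table, 1474 with median centring, 61 and 3466 by the methods' t-test with and without adjustment, 3763 without P5 replicate 2, 928 without P5 replicate 3, and 1387 and 1268 without E18.5 replicates 2 and 3. In P56 against P5 they numbered 7615, beside 5040 in the authors' table, 4672 with scan as a fixed block, 4995 with both stages alone, 298 by the adjusted t-test and 4741 without P5 replicate 2. In E18.5 against E14.5 they numbered 7909, beside 4798 in the authors' table. The share of calls that were lower moved there from 48.1% to 37.3% with an offset of 0 and 36.1% in the authors' table, and in P5 against E18.5 from 46.6% to 27.1% in that table.

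Differences that changed sign were called neither as reported nor in the alternative, where the adjusted p was 0.36 or more. In E18.5 against E14.5, Ccna2 became 0.043 without background subtraction, 0.216 with an offset of 0 and 0.078 in the authors' table, and ran from -0.059 to 0.067 with 1 array left out. In P5 against E18.5, Ccnb1 became 0.115 by processed signals, 0.045 without subtraction, 0.006 by Cy5 alone and 0.063 in the authors' table, Ccne2 0.016 without subtraction and 0.083 by Cy5 alone, and Cdkn1b 0 without subtraction and 0.063 by Cy5 alone. Ccna2 became 0.046 in the authors' table, and Ccne1 -0.26 with a value on every array, -0.053 as a mean of its oligonucleotides and -0.028 in the authors' table. With 1 array left out, Ccna2 ran there from -0.862 to 0.318, Ccnb1 from -1.015 to 0.100 and Cdkn1b from -0.689 to 0.130. Ccnd1 in P56 against P5 ran from -0.352 to 0.041 and Cdkn1a in P56 against E14.5 from -0.122 to 0.054.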

Other observations

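Marker lists of other liver cells were also measured. From E14.5 to E18.5, 24.6% of all genes were called higher and 22.8% lower, and between E14.5 and P56, 36.1% and 34.8%. The counts below were not tested against those shares. At E18.5, 6 of 9 endothelial genes were higher than at E14.5, with a median of 0.88, and 4 of 6 biliary genes were higher, with a median of 0.54. Of 10 stellate and fibroblast genes, 3 were higher and 3 lower in that comparison, and 8 were lower and 2 higher at P56 than at E14.5. At P56, 6 of the 9 endothelial genes were higher than at E14.5, while of the biliary genes 2 were higher and 1 lower.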
